A study of Mus with 6 samples.

Results

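Mitochondrial protein quality control was followed through 5 nuclear genes: the chaperones Hspd1, Hspe1 and Hspa9 and the proteases Lonp1 and Clpp. They were chosen by function, but with earlier results of these data known. They are 5 of the 35304 Ensembl gene IDs counted by RNA sequencing, and all 5 passed the filter on low counts. The deposited table holds IDs only. The symbol of each ID came with the definition of the gene set and was not checked against a table that pairs them. The samples were 6 RNA preparations of 4T1 cells, an established line from a mouse mammary carcinoma, grown in medium with serum. There were 3 untreated samples, with no treatment entered in the labels, and 3 samples exposed for 24 h to 10 µg/mL isopimaric acid (IPA), a plant diterpene acid. The series title calls IPA an ion channel regulator and names oxidative phosphorylation, whose protein complexes depend on the quality control genes described here. Whether the untreated wells received the solvent of IPA is not given in the sources used here, and neither is whether replicates were separate cultures. P-values therefore reflect only the spread among these preparations, and that spread may be technical.

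Most mitochondrial proteins are made in the cytosol and enter the matrix unfolded. The matrix Hsp70, encoded by Hspa9, pulls them in and starts their folding, and the Hsp60 barrel (Hspd1) with its Hsp10 lid (Hspe1) completes the folding of many of them. Misfolded or damaged matrix proteins are removed by the ATP-driven proteases LONP1 and ClpXP, of which CLPP forms the proteolytic chamber. The mRNAs of some matrix chaperones and proteases are used as readouts of the mitochondrial unfolded protein response.

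With IPA, Hspa9 and Lonp1 mRNA rose in the comparison that leaves out untreated replicate 2, a library that stood apart from the rest, by 1.88-fold and 1.53-fold. Hspd1, Hspe1 and Clpp did not pass the test there. Of the 25592 genes tested in that comparison, 1.26% passed as higher and 2.2% as lower. On simulated counts its fit made more false calls than the adjusted p threshold of 0.05 allows for. Over all 6 libraries 0 of the 5 genes passed, where 0% of all 24935 genes tested passed, so that count says nothing particular about these genes. In these bulk samples, more RNA per cell and a different mix of cells cannot be told apart.

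Library totals ran from 3410411 counts in IPA replicate 1 to 58924711 in untreated replicate 2. Untreated replicate 2 stood apart: its correlation with the other libraries in log2 CPM (read counts scaled to a common library size) was 0.779 to 0.811, against 0.922 to 0.987 among the other 5. They were computed across genes, and genes are not replicates. Its TMM factor, the scaling that corrects for differences in library composition, was 0.754, while those of the other 5 libraries ran from 1.02 to 1.11. Each result below is therefore given with and without this library. Levels are TMM-scaled CPM, and fold changes and tests are from edgeR's quasi-likelihood fit with Benjamini-Hochberg adjustment over all genes tested. A gene was called at an adjusted p under 0.05. Because 71 further genes of mitochondrial import, folding and proteolysis and of other cell types could not be matched from symbol to Ensembl ID, they were not analysed here, and the 4T1 label was not checked against epithelial markers.

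**Figure D1:**
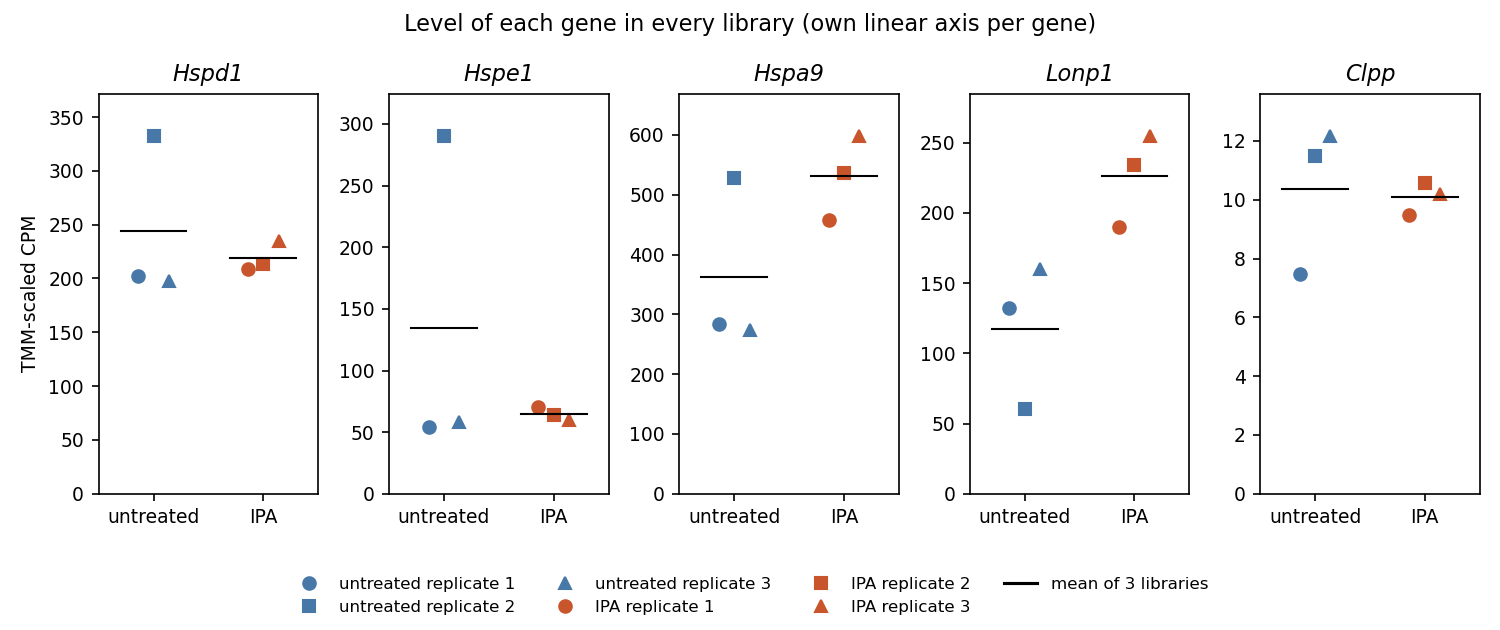
Level of each gene (TMM-scaled CPM, linear axis from 0, 1 axis per gene) in the 3 untreated and 3 IPA libraries; points are libraries and bars are means of 3. The IPA libraries sit above all untreated libraries for Lonp1 and above untreated replicates 1 and 3 for Hspa9, and untreated replicate 2 is the highest of the 6 libraries for Hspd1 and Hspe1, the lowest for Lonp1 and within the IPA range for Hspa9.

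Hspa9 (ENSMUSG00000024359; GRCm38 chr18:34937414-34954351) encodes mortalin, the matrix Hsp70 that drives import and early folding. Its level was 283, 528 and 274 CPM in untreated replicates 1, 2 and 3, and 458, 536 and 598 CPM in IPA replicates 1, 2 and 3. All 3 IPA libraries lay above untreated replicates 1 and 3, while untreated replicate 2 lay within the IPA range. Without that library Hspa9 rose with IPA by a log2 fold change of 0.91 ± 0.14 (SE; 95% interval 0.61 to 1.21; 2 untreated and 3 IPA libraries; edgeR adjusted p = 0.00156). Of the genes tested there, 3.69% had a higher log2 fold change. Over all 6 libraries its log2 fold change was 0.55 ± 0.32 (95% interval -0.20 to 1.31; edgeR adjusted p = 0.657). The position of untreated replicate 2 depended on the scaling: per library total, its Hspa9 level was 397 CPM, below the lowest IPA library at 509 CPM. On that scale the groups did not overlap for Hspa9, as for 15.7% of all tested genes in the same direction.

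Lonp1 (ENSMUSG00000041168; GRCm38 chr17:56614297-56626903) encodes the LON protease, which degrades oxidized and misfolded matrix proteins. Its level was 132, 60.4 and 160 CPM in untreated replicates 1, 2 and 3, and 190, 234 and 254 CPM in IPA replicates 1, 2 and 3. The groups did not overlap over all 6 libraries, on TMM-scaled CPM or per library total. Of all tested genes, 9.49% had all 3 IPA libraries above all 3 untreated ones on TMM-scaled CPM. The log2 fold change over all 6 libraries was 0.94 ± 0.37 (95% interval 0.07 to 1.82), with an unadjusted p of 0.0374 and an edgeR adjusted p of 0.657. Without untreated replicate 2, Lonp1 rose with IPA by 0.61 ± 0.14 on the log2 scale (95% interval 0.31 to 0.91; edgeR adjusted p = 0.024). Of the genes tested in that fit, 7.85% had a higher log2 fold change. Untreated replicate 2 thus moved the 2 called genes in opposite ways. Its Lonp1 level was 0.414 times the mean of untreated replicates 1 and 3, and its Hspa9 level was 1.89 times that mean. Deviations of this size were common in that library: among 13152 genes with a mean of at least 5 CPM, 30.1% deviated more than Lonp1 and 43.5% more than Hspa9.

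Hspd1 (ENSMUSG00000025980; GRCm38 chr1:55077833-55088243) encodes HSP60, the folding barrel of the matrix. Its level was 202, 332 and 198 CPM in untreated replicates 1, 2 and 3, and 209, 214 and 235 CPM in IPA replicates 1, 2 and 3. Untreated replicate 2 was 1.66 times the mean of the other 2 untreated libraries, and 52.9% of the same 13152 genes deviated more. The remaining libraries spanned a narrow range, in which the IPA libraries were the higher 3 of 5. The edgeR log2 fold change was 0.11 ± 0.13 without untreated replicate 2 (adjusted p = 0.759), and its 95% interval ran from -0.16 to 0.38, or from 0.897-fold to 1.3-fold. Over all 6 libraries it was -0.16 ± 0.26 (adjusted p = 0.846), so the sign rested on untreated replicate 2. Scaled by library totals it was also positive over all 6 libraries, at 0.11.

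Hspe1 (ENSMUSG00000073676; GRCm38 chr1:55088148-55091317) encodes HSP10, the lid of the HSP60 barrel. Its RefSeq gene span overlaps that of Hspd1 by 96 bp, at the start of both genes, which are transcribed away from each other. The handling of strand in the counting is not given in the sources used here, so reads from this stretch cannot be assigned with certainty. Hspe1 stood at 54.1, 290 and 58.2 CPM in untreated replicates 1, 2 and 3, and at 70.7, 64.2 and 59.8 CPM in IPA replicates 1, 2 and 3. Untreated replicate 2 was 5.16 times the mean of the other 2 untreated libraries, and 9.13% of the 13152 genes with a mean of at least 5 CPM deviated more in that library. The log2 fold change was -1.05 ± 0.65 over all 6 libraries (edgeR adjusted p = 0.659) and 0.18 ± 0.14 without untreated replicate 2 (95% interval -0.11 to 0.47; edgeR adjusted p = 0.601). The lower mean with IPA over 6 libraries was therefore set by 1 untreated library.

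Clpp (ENSMUSG00000002660; GRCm38 chr17:56990264-56996371) encodes the proteolytic chamber of the matrix ClpXP protease. It lies 363.4 kb from Lonp1 on the same chromosome. Its level was 7.47, 11.5 and 12.2 CPM in untreated replicates 1, 2 and 3, and 9.49, 10.6 and 10.2 CPM in IPA replicates 1, 2 and 3. All IPA libraries lay inside the untreated range. The edgeR log2 fold change was -0.04 ± 0.30 over all 6 libraries (adjusted p = 0.968) and 0.02 ± 0.24 without untreated replicate 2 (adjusted p = 0.987). The 95% interval of the latter, -0.49 to 0.52, corresponds to 0.714-fold to 1.43-fold. Clpp was the most thinly counted of the 5, with 36 counts in IPA replicate 1. The 95% Poisson interval of that level, which covers counting error only, was 6.65 to 13.1 CPM.

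**Figure D2:**
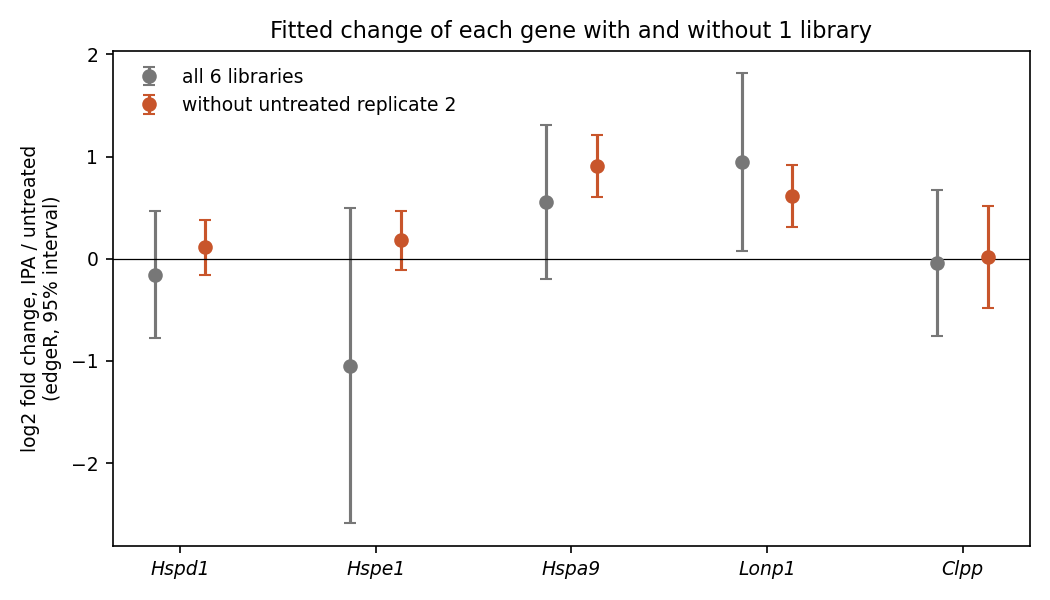
Log2 fold change of IPA over untreated for each gene (points, edgeR) with its 95% interval (bars), from all 6 libraries (grey) and without untreated replicate 2 (orange). Without that library the intervals of Hspa9 (0.61 to 1.21) and Lonp1 (0.31 to 0.91) lie above 0 and those of Hspd1, Hspe1 and Clpp include 0; all 6 libraries give wider intervals.

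Read against all genes, edgeR called 0% of 24935 tested genes higher and 0% lower over all 6 libraries, and 0 of the 5 genes. Before adjustment, 1560 of those 24935 genes reached an edgeR p below 0.05, and Lonp1 alone of the 5 was among them. Many genes pass such a cut by chance when this many are tested, so passing it does not set Lonp1 apart. DESeq2 over all 6 libraries called 22 genes higher (0.119%) and 63 lower (0.341%), with 0 of the 5 genes in either direction. Without untreated replicate 2, edgeR called 1.26% of 25592 genes higher and 2.2% lower, and 2 of the 5 genes higher and 0 lower. On simulated counts this fit recovered 86 of 100 2-fold and 98 of 100 4-fold changes. It also made 29 false calls, more than the threshold allows for. The fit of all 6 libraries recovered none of the changes set. Its simulated libraries all had a spread estimated with untreated replicate 2 included, and none was made to stand apart. That result therefore cannot tell what this fit would find in the real libraries. Scaled by library totals, the same 5 libraries gave 691 genes higher and 327 lower in place of 322 and 564, and again 2 and 0 of the 5. By groups that do not overlap, Lonp1 was the only 1 of the 5 genes with all IPA libraries above all untreated ones on TMM-scaled CPM, and 0 of the 5 had them all below, as 10.8% of all genes had. All IPA libraries lay above untreated replicates 1 and 3 for 4 of the 5 genes, Clpp being the exception, and for 14.2% of all genes. The median log2 fold change of the 5 genes was -0.04 over all 6 libraries and 0.18 without untreated replicate 2, against -0.08 and -0.04 over all tested genes.

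Ratios of counts within a library need no scaling between libraries and compare the genes with each other. As read counts grow with transcript length, a ratio is not a molar ratio, and only its change between libraries is described. Hspa9 had 1.40, 1.59 and 1.39 counts per Hspd1 count in untreated replicates 1, 2 and 3, and 2.20, 2.51 and 2.54 in IPA replicates 1, 2 and 3. The groups did not overlap, and untreated replicate 2 lay nearer to the other untreated libraries than to the IPA libraries on this measure. Both genes were high in that library: Hspa9 was 1.89 and Hspd1 1.66 times the mean of untreated replicates 1 and 3. The ratio is therefore not free of the shift in that library. The difference in mean log2 ratio was 0.73, a 1.66-fold higher ratio with IPA. By exact permutation its two-sided p was 0.1, as low as 3 libraries against 3 can reach, and 0.2 after Benjamini-Hochberg adjustment over the 4 ratios tested. Without untreated replicate 2 the difference was 0.79.

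For Lonp1 the ratio to Hspd1 was 0.654, 0.182 and 0.808 in untreated replicates 1, 2 and 3, and 0.909, 1.10 and 1.08 in IPA replicates 1, 2 and 3. These groups did not overlap either. The difference in mean log2 ratio was 1.16 (exact permutation p = 0.1, adjusted 0.2) and 0.50 without untreated replicate 2.

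The ratio of Hspe1 to Hspd1 counts overlapped between the groups outside untreated replicate 2. The SD of its log2 value was 0.097 in untreated replicates 1 and 3. Among the IPA libraries it was 0.21, the widest of the 4 ratios to Hspd1. Hspe1 had 0.268 and 0.294 counts per Hspd1 count in untreated replicates 1 and 3, and 0.339, 0.301 and 0.254 in IPA replicates 1, 2 and 3. In untreated replicate 2 the ratio was 0.873. The mean log2 difference was -0.47 over all 6 libraries (exact permutation p = 0.7) and 0.08 without that library (exact permutation p = 0.7). For Clpp to Hspd1 the difference was 0.10 (exact permutation p = 0.8), with overlapping groups.

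**Figure D3:**
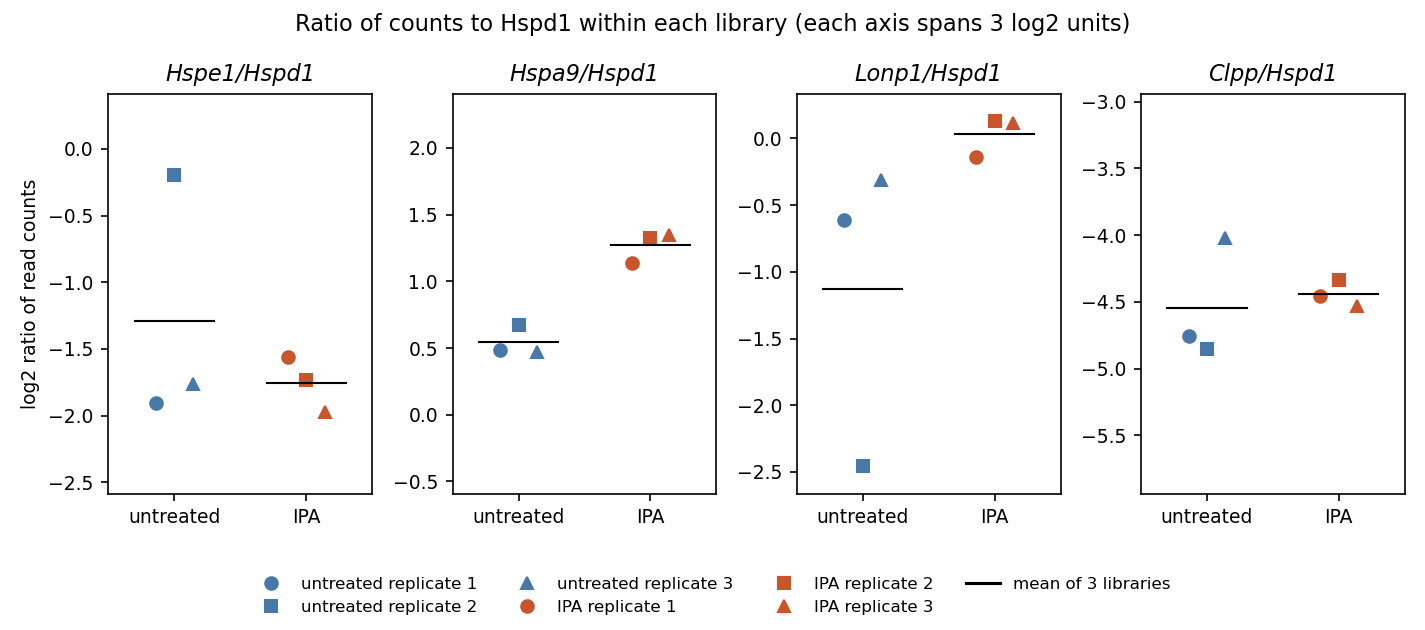
Log2 ratio of the read counts of Hspe1, Hspa9, Lonp1 and Clpp to those of Hspd1 in each library; points are libraries, bars are means of 3, and each axis spans 3 log2 units. The Hspa9 ratios of the 3 IPA libraries lie above those of all 3 untreated libraries, which sit close together, while untreated replicate 2 is far from the other libraries for Hspe1 and Lonp1.

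Lonp1 and Hspa9, the pair called without untreated replicate 2, had similar ratios in the IPA libraries. There were 0.414, 0.436 and 0.426 Lonp1 counts per Hspa9 count in IPA replicates 1, 2 and 3, against 0.467 and 0.583 in untreated replicates 1 and 3 and 0.114 in untreated replicate 2. This ratio was added after the values were seen and was not tested. How common so similar a ratio is among other gene pairs was not examined.

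Likeness of pattern was described by Pearson's r with Hspd1 in log2 CPM over all 6 libraries, among 13151 other genes with a mean of at least 5 CPM. Hspe1 had an r of 0.95, which ranked 512, and Hspa9 one of 0.55, which ranked 4603. Clpp, at 0.37, and Lonp1, at -0.73, ranked 5261 and 9029. All of these values share the far point of untreated replicate 2. Over the other 5 libraries Hspe1 ranked 6266, Hspa9 and Lonp1 ranked 1067 and 1339, and Clpp ranked 6914. The 3 genes most like Hspd1 have no symbol in the files and are not named.

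The chaperone genes have copies elsewhere in the genome. RefSeq, on the GRCm38.p6 assembly, lists 23 pseudogenes named after Hspd1, 7 after Hspe1 and 1 after Hspa9, and 0 after Lonp1 or Clpp. How reads that map to several places were counted is not given in the sources used here, so the levels of Hspd1 and Hspe1 are uncertain to that extent. No other ID had counts within 2% of any of the 5 genes in every library.

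**Figure D4:**
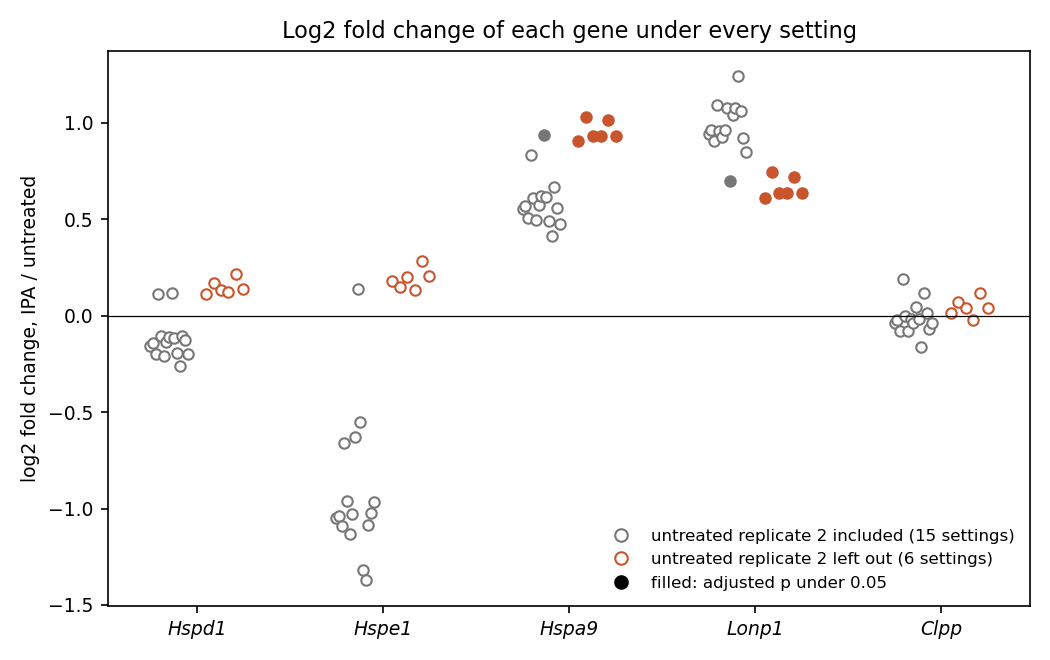
Log2 fold change of IPA over untreated for each gene (1 point per processing setting), grey where untreated replicate 2 is included and orange where it is left out; filled points have an adjusted p under 0.05. Hspa9 and Lonp1 lie above 0 under all settings shown and are filled in all 6 orange ones, while Hspd1, Hspe1 and Clpp lie on both sides of 0 and are never filled.

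Across the 20 alternative settings, Hspa9 and Lonp1 had a positive log2 fold change in 20 each, from 0.41 to 1.03 and from 0.61 to 1.24. Both were called in 7 of the 20. These were the 6 that leave out untreated replicate 2, and limma-voom with a quality weight per sample. In the latter, untreated replicate 2 stayed but had a weight of 0.0388. IPA replicate 2 had the highest weight there, 4.37, against 1.27 to 1.94 for the remaining libraries. In that fit 1.97% of all genes were called higher and 3.03% lower. Hspd1, Hspe1 and Clpp were called in 0 of the 20 settings. With untreated replicate 2 and the shallow IPA replicate 1 both left out, 2 libraries stood against 2. The log2 fold changes of Hspa9 and Lonp1 were then 1.03 ± 0.15 and 0.75 ± 0.15 (edgeR adjusted p = 0.00085 and 0.00776), where 2.88% of all genes were called higher and 3.05% lower.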

How the data were processed

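The authors deposited raw read counts per Ensembl gene ID for 6 libraries, per the file headers; the submitters' processing notes name the builds GRCm38 and mm10. For the aligner, counting tool, annotation and strand setting, nothing is given in the sources used here. Columns were matched to samples by letter and number. Counts were fitted with edgeR 4.0.16 in R 4.3.3 (filterByExpr, TMM, robust quasi-likelihood F-test), tested on simulated data, where the fit of all 6 libraries recovered no set change and the fit without untreated replicate 2 recovered most, with more false calls than the threshold allows for; the SE is the log2 fold change divided by the square root of F. Simulated libraries had the spread estimated from the libraries of each fit, and none was made to stand apart. Intervals are at 95%. Alternatives used DESeq2 1.42.0, limma 3.58.1, other scalings and filters, a replicate block, and libraries left out. The pseudocount for likeness was 0.5 CPM. A level of 3 counts corresponded to 0.0555 to 0.791 CPM, depending on the library. No pair of replicates agreed within sampling noise (lowest chi-square per degree of freedom 6.74).

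The members, lists and tests were chosen with earlier results of these data known. All 5 genes are named. The lists of 71 genes by symbol were not run, since 0 of the 49997 RefSeq genes at hand carry an Ensembl ID. Gene positions are from RefSeq by symbol. No sequence is shown.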

Additional observations from a re-analysis of the deposited data

How the results depend on the processing

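Over all 6 libraries, the 5 genes stayed on their side of the threshold under every alternative except limma-voom with sample quality weights, and leaving out untreated replicate 2 was the other change that gave calls among them. With those weights, Hspa9 and Lonp1 were called (2 of 5 higher, beside 492 genes higher and 755 lower) at log2 fold changes of 0.94 and 0.70, while Hspd1 (0.12), Hspe1 (0.14) and Clpp (0.043) turned positive. Library totals turned Hspd1 (0.11) and Clpp (0.19) positive and moved the median of all genes from -0.08 to 0.13; they and the lack of a filter each called 1 gene higher. DESeq2 called 22 higher and 63 lower. With 1 library left out at a time, the log2 fold changes ran from -0.26 to 0.11 for Hspd1, -1.37 to 0.18 for Hspe1, 0.41 to 0.91 for Hspa9, 0.61 to 1.24 for Lonp1 and -0.16 to 0.12 for Clpp, and 0 to 2 of the 5 genes, 0 to 322 genes higher and 0 to 564 lower were called; the counts above 0 all arose without untreated replicate 2. Clpp was positive without untreated replicate 2 (0.02), untreated replicate 3 (0.12) or IPA replicate 1 (0.01). With 1 library left out at a time, differences in mean within-library log2 ratio to Hspd1, IPA minus untreated, were also computed. They ran from 0.69 to 0.79 for Hspa9 and from 0.50 to 1.57 for Lonp1. For Hspe1 they ran from -0.776 to 0.0769. For Clpp they ran from -0.0492 to 0.365, with -0.002 without untreated replicate 1.

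Without untreated replicate 2, 2 of the 5 genes were called higher under each further change. The counts of all genes called, in brackets, are out of 17092 tested with DESeq2. With limma-voom, library totals or RLE size factors they are out of 25592. Without IPA replicate 1 as well, 24979 genes were tested. The log2 fold changes of Hspd1, Hspe1, Hspa9, Lonp1 and Clpp were 0.13, 0.20, 0.93, 0.64 and 0.041 with DESeq2 (634 genes higher, 660 lower), 0.12, 0.13, 0.93, 0.64 and -0.02 with limma-voom (660 and 1009), 0.22, 0.28, 1.01, 0.72 and 0.12 with library totals (691 and 327) and 0.14, 0.20, 0.93, 0.64 and 0.042 with RLE size factors (364 and 481). Library totals thus moved the higher share of all calls above the lower. Without IPA replicate 1 as well they were 0.17, 0.15, 1.03, 0.75 and 0.07 (719 and 763), and the log2 ratio of Clpp to Hspd1 differed by -0.04. For these differences the cause was not tested.

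With the replicate block over all 6 libraries, 0 of the 5 genes and 0 genes in all were called, with log2 fold changes of -0.11, -0.55, 0.61, 1.04 and -0.02 in the same order. The deviations from the group means had correlations of -0.0771, 0.0183 and 0.161 between samples of the same number, and for 3 of 6 samples this was the highest, so the numbers were not taken to pair the samples. The shallowest library, IPA replicate 1, has the highest floor, with 3 counts at 0.791 CPM.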
